A study of Mus musculus with 8 samples.

Results

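Axon guidance ligands and receptors were taken as the 73 mouse genes with a named array probe whose symbol begins with Sema, Plxn, Robo, Slit and a number, Epha, Ephb, Efna, Efnb, Ntn or Unc5, together with Nrp1, Nrp2 and Dcc, and without the Slitrk genes. They were measured by 121 of the 32994 probes that could be given a gene name, among 56605 probes in all. Of the 73 genes, 70 are guidance ligands, receptors or their close relatives. The other 3 were caught by their prefix alone: Unc50 encodes a Golgi membrane protein, Unc5cl is a relative of the Unc5 receptors, and Plxna4os1 is a transcript antisense to Plxna4. After a filter on dim probes 71 of the 73 could be tested, among 29362 tested genes and unnamed probes. Of these 29362, 16852 were named genes, and shares of all genes below include the unnamed probes. Unc5cl and Plxna4os1 were well above background in 0 of 16 animals and were not tested.

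RNA came from the right fronto-parietal cortex of 16 mice, taken on the lesioned side, and was hybridised on 8 Agilent arrays with RNA of 2 animals on each. The 4 groups of 4 animals were cryolesioned mice deficient in microglia-derived Il6, cryolesioned floxed mice, control mice with that Il6 deficiency, and control floxed mice. A cryolesion is local damage produced by freezing the surface of the brain, and Il6 encodes the cytokine interleukin-6. The labels call the animals of a group biological replicates. Below, the genotypes are called Il6-deficient and floxed. The Cre driver, the floxed allele and whether the deficient mice carry it too, the age and sex of the animals, the time after the lesion and any sham surgery of the controls were not given in the sources used here. On 4 arrays a cryolesioned animal was set against a control animal of the other genotype, and no array held both states of the same genotype.

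Guidance cues steer growing axons and migrating cells through receptors that remodel the cytoskeleton. Secreted class 3 semaphorins act through neuropilins and plexins, membrane-bound semaphorins bind plexins directly, Slits repel through Robo receptors, netrins attract through Dcc and repel through Unc5 receptors, and ephrins bind Eph receptors on neighbouring cells and can signal in both directions. In the adult cortex many of these genes remain active at synapses, in blood vessels and in glia, and several cues are known to limit the regrowth of injured axons.

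Levels below are log2 channel intensities per animal, on which a difference of 1 is a doubling, and levels of different genes cannot be compared because every probe binds with its own strength. Between 59.2% and 65.9% of all probes were well above background in each animal. Median spot intensities were 111 to 144 in the Cy5 channel and 45 to 59 in the Cy3 channel, and 0 spots were saturated. The number of arrays limits the precision. Ntn4, a netrin of basement membranes, was well above background in 0 of 8 cryolesioned animals, in 3 of 4 Il6-deficient controls and in 2 of 4 floxed controls. Its measured means were 6.14 in cryolesioned animals and 6.26 in controls, both near background, and it did not pass for cryolesion (adjusted p = 0.470). Il6 itself, checked with 2 probes, was above background in 0 of 4 Il6-deficient cryolesioned animals with both probes, in 3 of 4 floxed cryolesioned animals with one probe and in 1 of 4 with the other, and in 0 of 8 controls.

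More guidance genes were lower than higher after cryolesion. Over both genotypes, 13 of the 71 tested genes fell and 2 rose in cryolesioned cortex. The falls lay in 9 of 12 families and comprised the ligands Sema3a, Sema3c, Sema6b, Sema6c, Slit2 and Ntng1 and the receptors Plxnc1, Plxnd1, Robo2, Unc5c, Epha6, Epha8 and Ephb2. The rises were those of the receptors Epha2 and Plxnb2. The 15 changes made up 21.1% of the group, where 11.9% of all 29362 tested genes and probes passed the same threshold, a Benjamini-Hochberg adjusted p under 0.05 over all of them in limma. Of the guidance genes 2.82% passed as higher, against 6.02% of all genes, and 18.3% passed as lower, against 5.87% of all genes. The median change was -0.12 over the 71 genes and -0.01 over all genes, and 50 of the 71, or 70.4%, lay below 0, against 52.4% of all genes. In bulk tissue, fewer cells of a type and less RNA per cell cannot be told apart.

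**Figure D1:**
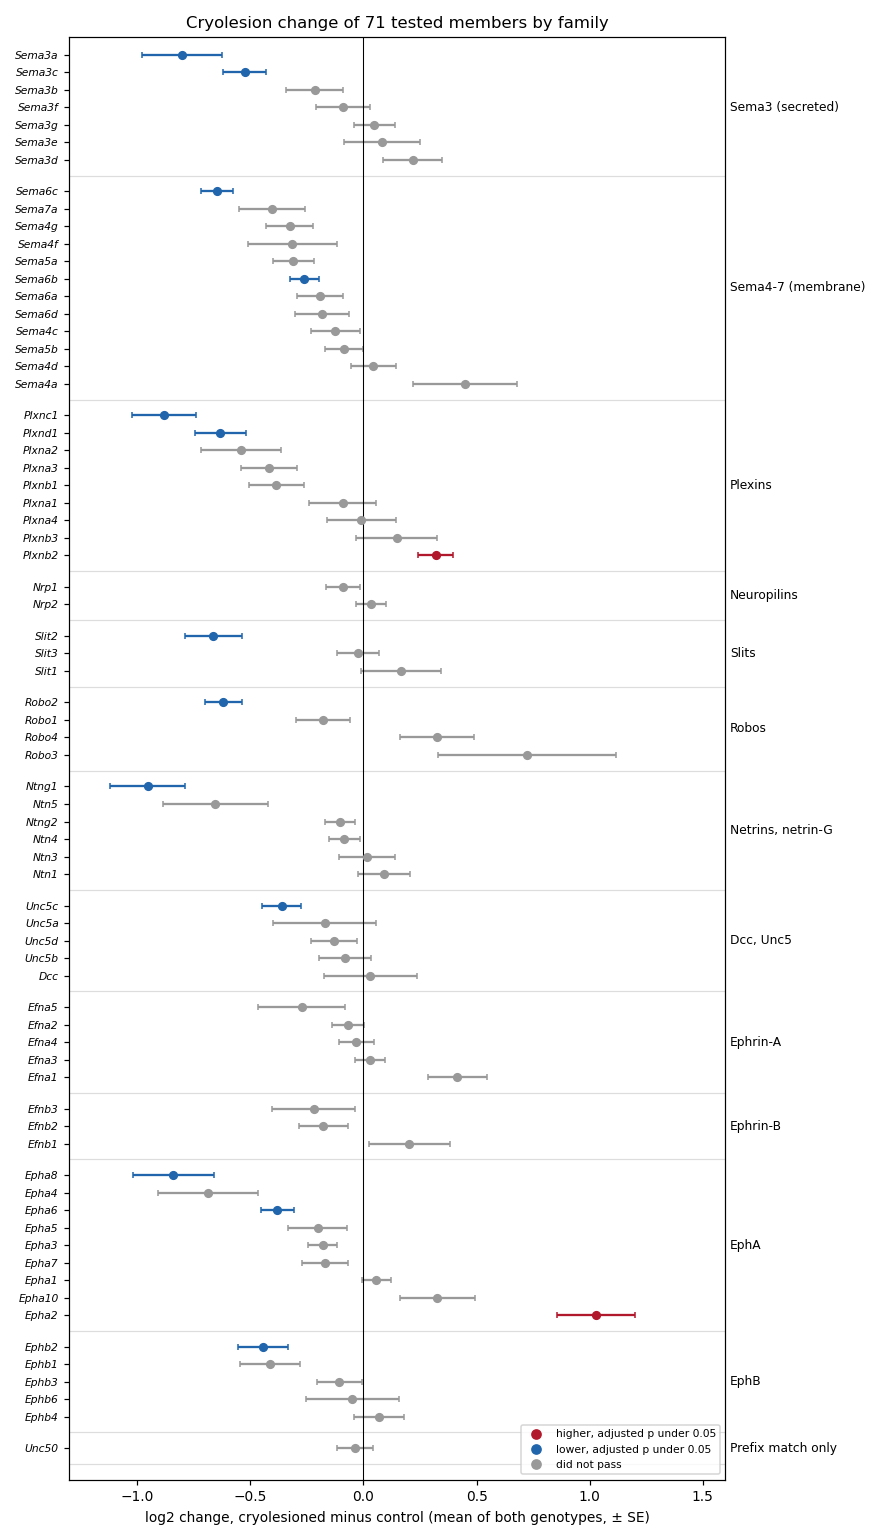
Log2 change of each of the 71 tested genes after cryolesion, as the mean of both genotypes with its SE, grouped by family. Points to the left of 0 were lower in cryolesioned cortex: 13 of them passed the threshold (blue) and 2 genes passed as higher (red), with a range of -0.95 for Ntng1 to 1.03 for Epha2.

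The count of 15 moved with individual arrays, and leaving out 1 array at a time gave 3 to 21 guidance genes. It was 3, all among the 15, without the second of the arrays that set floxed cryolesioned against Il6-deficient control animals, and 3 without the second of those that set Il6-deficient cryolesioned against floxed control animals, with 3.42% and 3.16% of all genes then passing. In both repeats 3 of 71 lay close to the share of all genes, unlike the 21.1% against 11.9% with all arrays. It was 8 without the first of the floxed cryolesioned against Il6-deficient control arrays and 8 without the second array that paired the cryolesioned groups, with 4.22% and 6.71% of all genes passing. The highest count, 21, came without the second array that paired the control groups, where 17.6% of all genes passed. None of the 15 changes turned its sign in any of these 8 repeats. Of the 15 genes 10 had several probes, all with the same sign, and a second probe passed for Plxnd1 (-0.48), Robo2 (-0.54) and Sema3a (-0.38). The other probes did not pass and fell less than the tested ones. They gave -0.15 for Ntng1, -0.14 for Slit2, -0.30 for Plxnc1 and -0.09 for Ephb2. For Epha6 they gave -0.23 and -0.18, for Sema6c -0.33 and for Unc5c -0.14, so the sizes below depend on the probe. Sema6c and Robo2 passed in 8 of 8 repeats, Plxnc1 in 7, Epha2, Ntng1 and Plxnd1 in 6, Epha6 and Sema3c in 5, Slit2 in 4, Epha8 in 3, Plxnb2, Sema3a and Unc5c in 2, and Ephb2 and Sema6b in 1. Under 11 other settings of normalization, filter, probe rule and fit, Sema6c and Slit2 passed in 11, Epha2, Plxnc1, Plxnd1 and Sema3c in 10, Epha6, Ntng1 and Robo2 in 9, Epha8 and Sema3a in 7, Sema6b in 5, and Ephb2, Plxnb2 and Unc5c in 4. The calls of these last 4 genes ended, among others, with ratios centred on each array's median, with the scanner's processed intensities, with the authors' deposited table of ratios, and with sex as a covariate. Sizes moved across the 11 settings as well, from 0.80 to 1.43 for Epha2 and from -1.11 to -0.55 for Ntng1. On the 4 arrays that paired a cryolesioned with a control animal, 12 of the 13 genes that fell were lower in the cryolesioned animal on 4 of 4 arrays, the exception being Robo2 with 3 of 4. These arrays carry the tested change directly and the genes were selected by it, so this count is no separate check. In 5 of the 71 genes, 7.04%, the 8 cryolesioned and 8 control animals did not overlap, against 4.96% of all genes.

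Among the secreted class 3 semaphorins, 2 of 7 fell and 0 rose. Sema3a, a repellent of cortical axons that signals through Nrp1 and class A plexins, had levels of 8.39, 9.13, 9.11 and 8.90 in Il6-deficient cryolesioned animals, 8.36, 8.11, 9.01 and 8.46 in floxed cryolesioned animals, 9.21, 9.37, 9.30 and 9.31 in Il6-deficient controls, and 9.49, 9.12, 9.58 and 9.51 in floxed controls. Every cryolesioned animal lay below the controls of its own genotype, with the lowest values among the floxed cryolesioned animals. Its change was -0.80 ± 0.18 (log2, SE), or 0.573 times the control level, with an adjusted p of 0.0325. Sema3c, which signals through neuropilins and Plxnd1, had levels of 8.62, 8.52, 8.87 and 8.59 in Il6-deficient cryolesioned animals, 8.65, 8.51, 8.79 and 8.35 in floxed cryolesioned animals, 9.42, 8.89, 9.27 and 8.89 in Il6-deficient controls, and 9.13, 8.93, 9.29 and 9.27 in floxed controls. The highest of the 8 cryolesioned animals lay just under the lowest of the 8 controls, and the change was -0.53 ± 0.09 (adjusted p = 0.0173). The 5 others, Sema3b, Sema3d, Sema3e, Sema3f and Sema3g, did not pass and ranged from -0.22 for Sema3b to 0.22 for Sema3d.

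Of the 12 membrane-bound semaphorins, 2 fell and 0 rose, both of class 6, whose members are transmembrane proteins that bind class A plexins. Sema6c had levels of 9.02, 9.05, 8.96 and 8.92 in Il6-deficient cryolesioned animals, 8.64, 8.65, 8.83 and 8.80 in floxed cryolesioned animals, 9.43, 9.67, 9.46 and 9.45 in Il6-deficient controls, and 9.31, 9.42, 9.59 and 9.27 in floxed controls. All 8 cryolesioned animals lay below all 8 controls, and the 4 floxed cryolesioned animals lay below the 4 Il6-deficient cryolesioned ones. The change of Sema6c was -0.65 ± 0.07, or 0.639 times control, with the smallest adjusted p of the group, 0.00357. Sema6b had levels of 10.55, 10.31, 10.28 and 10.31 in Il6-deficient cryolesioned animals, 10.29, 10.08, 10.17 and 9.93 in floxed cryolesioned animals, 10.41, 10.52, 10.57 and 10.56 in Il6-deficient controls, and 10.47, 10.48, 10.48 and 10.39 in floxed controls. The floxed cryolesioned animals lay below every control, whereas the Il6-deficient cryolesioned animals overlapped with their controls, and the change over both genotypes was -0.26 ± 0.06 (adjusted p = 0.0448), a call that passed in 5 of the 11 other settings. The 10 others were Sema4a, Sema4c, Sema4d, Sema4f, Sema4g, Sema5a, Sema5b, Sema6a, Sema6d and Sema7a, the membrane-anchored ligand of Plxnc1. They ranged from -0.40 for Sema7a to 0.45 for Sema4a, with none past the threshold.

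Plexins, the receptors of the semaphorins, gave 2 falls and 1 rise among 9 genes. Plxnc1, the receptor of Sema7a, had levels of 9.33, 8.82, 9.23 and 9.22 in Il6-deficient cryolesioned animals, 8.73, 8.23, 9.21 and 8.35 in floxed cryolesioned animals, 9.61, 9.62, 9.60 and 9.79 in Il6-deficient controls, and 9.80, 9.38, 9.70 and 9.85 in floxed controls. All cryolesioned animals lay below all controls and 3 of the 4 floxed cryolesioned animals were lowest, with a change of -0.88 ± 0.14, or 0.543 times control (adjusted p = 0.0118). Plxnd1, a receptor of Sema3e best known from blood vessels and also made by neurons, had levels of 11.80, 12.10, 11.96 and 11.65 in Il6-deficient cryolesioned animals, 11.56, 11.42, 11.62 and 11.32 in floxed cryolesioned animals, 11.68, 12.41, 12.43 and 12.22 in Il6-deficient controls, and 12.16, 11.95, 12.33 and 12.13 in floxed controls. The floxed cryolesioned animals lay below every other animal, and 1 Il6-deficient control was as low as the Il6-deficient cryolesioned animals. The change of Plxnd1 was -0.63 ± 0.11 (adjusted p = 0.0167).

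Plxnb2, a receptor of class 4 semaphorins that is also found on microglia and macrophages, moved the other way, with levels of 10.85, 10.80, 10.66 and 10.60 in Il6-deficient cryolesioned animals, 10.97, 10.98, 10.64 and 10.83 in floxed cryolesioned animals, 10.47, 10.60, 10.43 and 10.51 in Il6-deficient controls, and 10.42, 10.87, 10.66 and 10.34 in floxed controls. The Il6-deficient cryolesioned animals lay above every Il6-deficient control, while the floxed groups overlapped, with floxed control replicate 2 the highest of its group. Its change was 0.32 ± 0.08, or 1.25 times control (adjusted p = 0.0421), and it passed in 4 of the 11 other settings. The 6 plexins that did not pass, Plxna1, Plxna2, Plxna3, Plxna4, Plxnb1 and Plxnb3, ranged from -0.54 for Plxna2 to 0.15 for Plxnb3. Neither neuropilin passed: Nrp1 had a change of -0.09 ± 0.07 (adjusted p = 0.482) and Nrp2 one of 0.03. Their other probes gave 0.08 and 0.27 for Nrp1 and 0.53 and 0.08 for Nrp2, none past the threshold. Levels of Nrp1 were 11.60, 11.54, 10.98 and 11.33 in Il6-deficient cryolesioned animals, 11.19, 11.23, 11.17 and 11.40 in floxed cryolesioned animals, 11.61, 11.36, 11.21 and 11.46 in Il6-deficient controls, and 11.31, 11.44, 11.25 and 11.17 in floxed controls, and the groups overlapped throughout.

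Slit2 and its receptor Robo2 fell, whereas the other 2 Slits and the other 3 Robos did not pass. Slit2, a secreted repellent, had levels of 9.05, 8.96, 9.08 and 9.17 in Il6-deficient cryolesioned animals, 9.05, 9.14, 8.87 and 8.68 in floxed cryolesioned animals, 9.53, 9.76, 9.71 and 9.81 in Il6-deficient controls, and 9.72, 9.07, 9.63 and 9.95 in floxed controls. Cryolesioned animals were lower than all controls but floxed control replicate 2, and the change was -0.66 ± 0.13, or 0.631 times control (adjusted p = 0.0206). Robo2 had levels of 9.71, 10.05, 10.26 and 9.87 in Il6-deficient cryolesioned animals, 9.25, 9.45, 9.92 and 9.31 in floxed cryolesioned animals, 10.06, 10.41, 10.44 and 10.16 in Il6-deficient controls, and 10.37, 9.93, 10.24 and 10.46 in floxed controls. All floxed cryolesioned animals lay below the floxed controls, the Il6-deficient groups overlapped, and the change was -0.62 ± 0.08 (adjusted p = 0.00665). Slit1 and Slit3 had changes of 0.17 and -0.03. Robo1 had a change of -0.18 and Robo4, the endothelial Robo, one of 0.33. Robo3, a receptor that governs midline crossing of commissural axons in development, showed the largest change of its family in size, 0.72 ± 0.39, and did not pass (adjusted p = 0.285). Its levels were 10.82, 11.63, 9.93 and 10.66 in Il6-deficient cryolesioned animals, 11.04, 11.93, 9.55 and 10.94 in floxed cryolesioned animals, 9.65, 10.83, 10.58 and 10.03 in Il6-deficient controls, and 9.55, 10.65, 10.36 and 9.71 in floxed controls, so that animals of each group differed by more than 1 unit.

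Of the netrins and netrin-G genes 1 of 6 fell, and of Dcc and the Unc5 receptors 1 of 5. Ntng1, a membrane-anchored netrin relative that acts in synapse adhesion rather than through Dcc, had levels of 8.47, 8.04, 8.81 and 8.38 in Il6-deficient cryolesioned animals, 8.17, 7.98, 8.83 and 7.66 in floxed cryolesioned animals, 9.48, 9.34, 9.08 and 9.23 in Il6-deficient controls, and 9.56, 8.31, 9.18 and 9.68 in floxed controls. Cryolesioned animals were lower than the controls of their genotype except for overlap through floxed control replicate 2, and the change of -0.95 ± 0.16, or 0.516 times control, was the largest fall of the group among the tested probes (adjusted p = 0.0153). The other Ntng1 probe had a change of -0.15 and did not pass. Ntn1, Ntn3, Ntn4, Ntn5 and Ntng2 ranged from -0.65 for Ntn5 to 0.09 for Ntn1 and did not pass. Unc5c, a netrin receptor for repulsion, had levels of 9.01, 8.70, 8.73 and 8.78 in Il6-deficient cryolesioned animals, 8.78, 8.67, 8.70 and 8.41 in floxed cryolesioned animals, 9.20, 9.10, 9.06 and 9.20 in Il6-deficient controls, and 9.29, 8.88, 8.98 and 9.17 in floxed controls. Within each genotype the cryolesioned animals lay below the controls, and the change was -0.36 ± 0.09 (adjusted p = 0.0416), which passed in 4 of the 11 other settings. Unc5a, Unc5b, Unc5d and Dcc ranged from -0.17 for Unc5a to 0.03 for Dcc, without passing. Other probes of Dcc gave -0.43, -0.14 and -0.17 and did not pass either.

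The Eph receptors held the largest rise of the group beside 3 falls, among 9 EphA and 5 EphB genes. Epha2, a receptor of A-type ephrins known from epithelia and endothelium, had levels of 8.26, 7.90, 7.57 and 7.63 in Il6-deficient cryolesioned animals, 8.36, 8.62, 7.72 and 8.0 in floxed cryolesioned animals, 6.72, 7.15, 7.05 and 7.0 in Il6-deficient controls, and 6.98, 7.19, 6.84 and 7.16 in floxed controls. All 8 cryolesioned animals lay above all 8 controls, and the change was 1.03 ± 0.17, or 2.04 times control (adjusted p = 0.0138). Epha8, a receptor of A-type ephrins studied in the developing visual midbrain, had levels of 8.29, 9.16, 9.12 and 8.85 in Il6-deficient cryolesioned animals, 8.82, 8.25, 8.76 and 8.69 in floxed cryolesioned animals, 9.22, 9.77, 9.65 and 9.62 in Il6-deficient controls, and 9.43, 9.20, 9.76 and 9.36 in floxed controls. All cryolesioned animals lay below all controls, with a change of -0.84 ± 0.18, or 0.558 times control (adjusted p = 0.0297). Epha6, a neuronal receptor of the same class, had levels of 8.20, 7.86, 8.04 and 8.06 in Il6-deficient cryolesioned animals, 7.86, 7.68, 7.87 and 7.70 in floxed cryolesioned animals, 8.70, 8.24, 8.21 and 8.53 in Il6-deficient controls, and 8.37, 8.13, 8.20 and 8.23 in floxed controls. Cryolesioned animals lay below the controls within each genotype, and the change was -0.38 ± 0.07 (adjusted p = 0.0207).

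Ephb2, a receptor of B-type ephrins at excitatory synapses, had levels of 8.88, 9.27, 9.07 and 9.01 in Il6-deficient cryolesioned animals, 9.38, 9.23, 8.87 and 9.21 in floxed cryolesioned animals, 9.92, 9.75, 9.76 and 9.62 in Il6-deficient controls, and 9.50, 9.18, 9.71 and 9.38 in floxed controls. The Il6-deficient groups did not overlap and the floxed groups did, with floxed control replicate 2 the lowest of its group. The change over both genotypes was -0.44 ± 0.11 (adjusted p = 0.0459), which passed in 4 of the 11 other settings. The 6 other EphA genes, Epha1, Epha3, Epha4, Epha5, Epha7 and Epha10, ranged from -0.69 for Epha4 to 0.33 for Epha10, and Ephb1, Ephb3, Ephb4 and Ephb6 ranged from -0.41 for Ephb1 to 0.07 for Ephb4, none of them past the threshold. The other probe of Epha10 gave -0.07 and that of Ephb4 -0.03, and neither passed. None of the 8 ephrins passed. Efna1, an A-type ephrin that binds Epha2, came nearest with 0.42 ± 0.13 (adjusted p = 0.0832), from levels of 9.31, 9.73, 8.72 and 9.07 in Il6-deficient cryolesioned animals, 9.26, 8.71, 8.55 and 9.86 in floxed cryolesioned animals, 8.82, 8.51, 8.36 and 8.57 in Il6-deficient controls, and 8.58, 8.56, 8.52 and 8.66 in floxed controls. Of the 8 cryolesioned animals 5 lay above every control for Efna1 and 3 within the range of the controls. Efnb3, a midline barrier to corticospinal axons, had the largest change of the B class, -0.22 ± 0.18 (adjusted p = 0.489), and the other 6 ephrins lay between -0.27 for Efna5 and 0.20 for Efnb1.

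**Figure D2:**
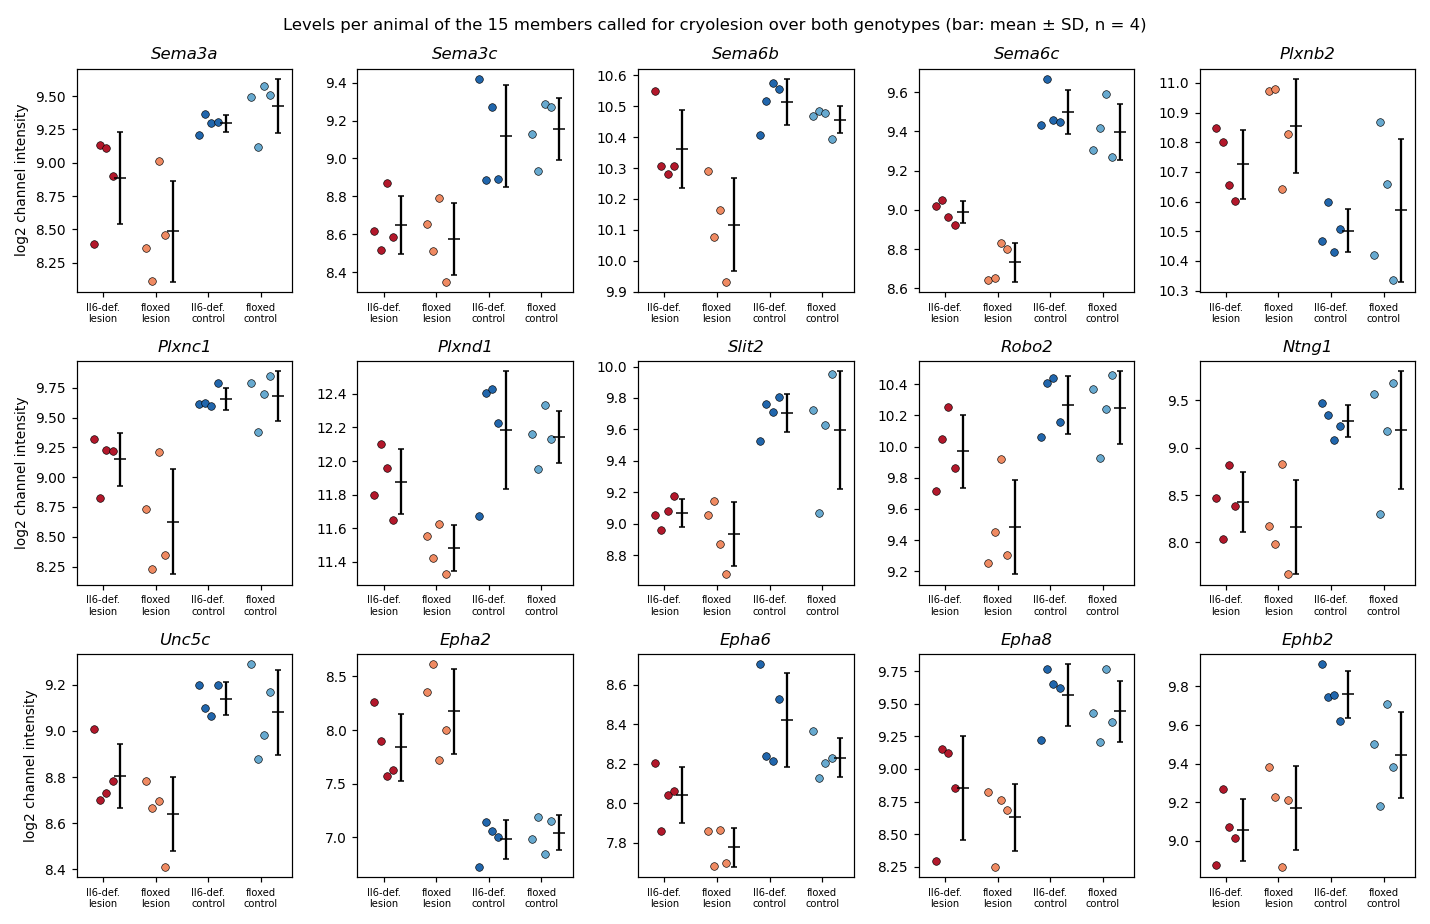
Log2 channel intensity of the 15 genes that passed for cryolesion over both genotypes, 1 panel a gene and 1 point an animal, with the mean and SD of each group of 4 beside the points. Epha2 and Plxnb2 are higher in the cryolesioned groups and the other 13 lower; the 8 cryolesioned and 8 control animals do not overlap for Epha2, Epha8, Plxnc1, Sema3c and Sema6c.

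The sequence before the annotated start is shown for Epha2, the largest rise, and for Sema6c, the fall with the smallest adjusted p. The sequences are those of RefSeq on mouse build GRCm38.p6, 250 bases on the plus strand at chr4:141300971-141301220 for Epha2 and chr3:95160170-95160419 for Sema6c, and capitals mark matches, on either strand, to 4 motifs: the cAMP response element TGACGTCA, the AP-1 motif TGANTCA, the STAT motif TTCNNNGAA and the GC box GGGCGG, which on the other strand reads CCGCCC.
Epha2: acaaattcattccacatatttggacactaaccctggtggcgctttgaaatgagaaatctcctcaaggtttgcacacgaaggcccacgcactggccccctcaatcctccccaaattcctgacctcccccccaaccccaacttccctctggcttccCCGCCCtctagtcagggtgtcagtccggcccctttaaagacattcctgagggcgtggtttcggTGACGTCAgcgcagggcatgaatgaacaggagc
Sema6c: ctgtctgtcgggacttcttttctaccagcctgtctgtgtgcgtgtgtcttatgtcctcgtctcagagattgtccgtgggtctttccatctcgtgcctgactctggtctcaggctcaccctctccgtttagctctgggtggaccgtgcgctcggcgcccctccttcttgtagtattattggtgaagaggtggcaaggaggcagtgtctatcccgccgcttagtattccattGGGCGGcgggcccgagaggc
The Epha2 window held 1 cAMP response element and 1 GC box, the Sema6c window 1 GC box, and no match overlapped another. Of 76 such windows of 61 guidance genes, 1.32% held TGACGTCA, 3.95% TGANTCA, 2.63% TTCNNNGAA and 69.7% GGGCGG, and of all 32851 mouse promoter windows of that length the shares were 1.55%, 6.75%, 7.02% and 32.7%. A match describes letters only, and binding was not measured here.

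Effectors downstream of the receptors changed in both directions, and the other guidance cues that passed were lower. Of all tested genes 6.02% passed as higher and 5.87% as lower, with a median of -0.01. Of 40 guidance effectors, all tested, 4 rose and 6 fell over both genotypes, with a median of -0.10. Of the 10 that passed, the 6 largest changes were those of Ngef, the exchange factor ephexin that acts below EphA receptors (-0.92 ± 0.16), Pak1, a kinase of the actin skeleton (-0.72 ± 0.15), Dpysl2, the semaphorin effector CRMP2 (-0.66 ± 0.14), the plexin-associated kinase Fes (0.65 ± 0.10), the plexin-binding GTPase Rnd1 (-0.62 ± 0.11) and Rhoa, the GTPase of growth cone collapse (0.44 ± 0.08). Of 25 tested genes among 26 listed for other guidance cues and growth inhibitors, 0 rose and 6 fell, with a median of -0.32. They were the chemokine Cxcl12 (-1.31 ± 0.09), the adhesion protein Cntn1 (-0.97 ± 0.13), Rtn4, which encodes the myelin inhibitor Nogo (-0.91 ± 0.14), Omg, another myelin inhibitor (-0.91 ± 0.16), Flrt2, a ligand of Unc5 receptors (-0.48 ± 0.12), and the repellent Rgma (-0.45 ± 0.08).

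Cell type markers moved in the same samples. Of 10 neuronal markers 3 fell and 0 rose, among them Tbr1 (-0.98) and Camk2a (-0.69), and their mean level was 13.14 to 13.73 in cryolesioned animals against 13.40 to 13.92 in controls. The median change of the 10 was -0.41, with 9 below 0. Of 4 markers of oligodendrocyte precursors 3 fell, with mean levels of 9.67 to 10.46 in cryolesioned animals against 10.69 to 10.96 in controls. All 4 lay below 0, with a median of -0.61. Mature oligodendrocyte markers had 1 fall among 6 and levels of 11.66 to 12.70 in cryolesioned animals against 12.46 to 12.94 in controls. All 6 lay below 0, with a median of -0.44. Astrocyte markers had 3 rises and 2 falls among 8, with levels of 12.36 to 12.70 in cryolesioned animals against 11.69 to 12.13 in controls. The median change of these 8 was -0.01 with 4 below 0, and the large rises were those of the filament genes Gfap (3.58) and Vim (2.68). Markers of blood-borne myeloid cells had 6 rises among 8 tested of 9, with levels of 7.99 to 8.79 in cryolesioned animals against 7.07 to 7.39 in controls. Markers of meningeal fibroblasts had 2 rises among 6, microglial markers 1 rise and 3 falls among 7, and markers of endothelium and mural cells 1 fall among 8. None passed of 2 tested among 6 lymphocyte markers and of 2 tested among 3 erythroid markers. The part of these shifts in the changes of the guidance genes was not tested.

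Sex also differed between the groups. Xist, the transcript of the inactive X chromosome, was well above background in 0 of 8 cryolesioned animals, 1 of 4 Il6-deficient controls and 3 of 4 floxed controls. The floxed control without it, replicate 2, was the lowest of the 4 floxed controls for 11 of the 13 genes that fell, all but Sema6b and Sema6c, and the highest for both genes that rose (Epha2 and Plxnb2), the side of the cryolesioned animals in each case. The other controls without Xist were Il6-deficient replicates 1, 3 and 4. Against the Il6-deficient control with Xist, they lay on both sides for Slit2, Plxnc1, Robo2, Sema6b, Plxnd1, Ntng1, Unc5c, Epha6 and Ephb2. For Sema3c, replicates 1 and 3 lay above it and replicate 4 was about level with it. They lay below it for Sema3a, Sema6c and Epha8, and also for both genes that rose. Leaving out the array of floxed control replicate 2 gave the count of 21 above. Floxed control replicate 2 shared its array with the Il6-deficient control that had Xist. On all other arrays Xist was above background in every floxed control and in no other animal. The sex term was thus estimated from that array alone and cannot be told apart from an effect of the array or its animals. With sex as a covariate 9 guidance genes passed, where 8.31% of all genes did, and 7 of these 9 were among the 15: Epha2, Plxnc1, Plxnd1, Robo2, Sema3c, Sema6c and Slit2. The other 2, Ephb1 (-0.60 ± 0.11) and Plxnb1 (-0.54 ± 0.11), were lower after cryolesion.

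Within each genotype alone, fewer genes passed. In Il6-deficient animals 1 guidance gene was lower after cryolesion, Sema6c, with a change of -0.63 ± 0.10 (adjusted p = 0.0301), where 2.73% of all genes passed. In floxed animals 4 of 71 were lower, where 3.05% of all genes passed, with changes for Plxnc1 of -1.02 ± 0.20 (adjusted p = 0.0482), for Plxnd1 of -0.88 ± 0.16 (adjusted p = 0.0382), for Robo2 of -0.71 ± 0.12 (adjusted p = 0.0300) and for Sema6c of -0.66 ± 0.10 (adjusted p = 0.0234). The same genes had changes in Il6-deficient animals of -0.75 for Plxnc1, -0.39 for Plxnd1 and -0.53 for Robo2. Median changes over the 71 genes were -0.08 in Il6-deficient and -0.17 in floxed animals, with 47 and 54 genes below 0; over all genes both medians were -0.01, with 51.9% and 52.1% below 0. Leaving out 1 array at a time, Sema6c passed in 1 of 8 repeats in Il6-deficient animals, and in floxed animals Plxnc1 passed in 3, Plxnd1 in 1, Robo2 in 2 and Sema6c in 3 of 8. With ratios centred on each array's median in place of loess, or with the scanner's processed intensities, 0 guidance genes passed in floxed animals.

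**Figure D3:**
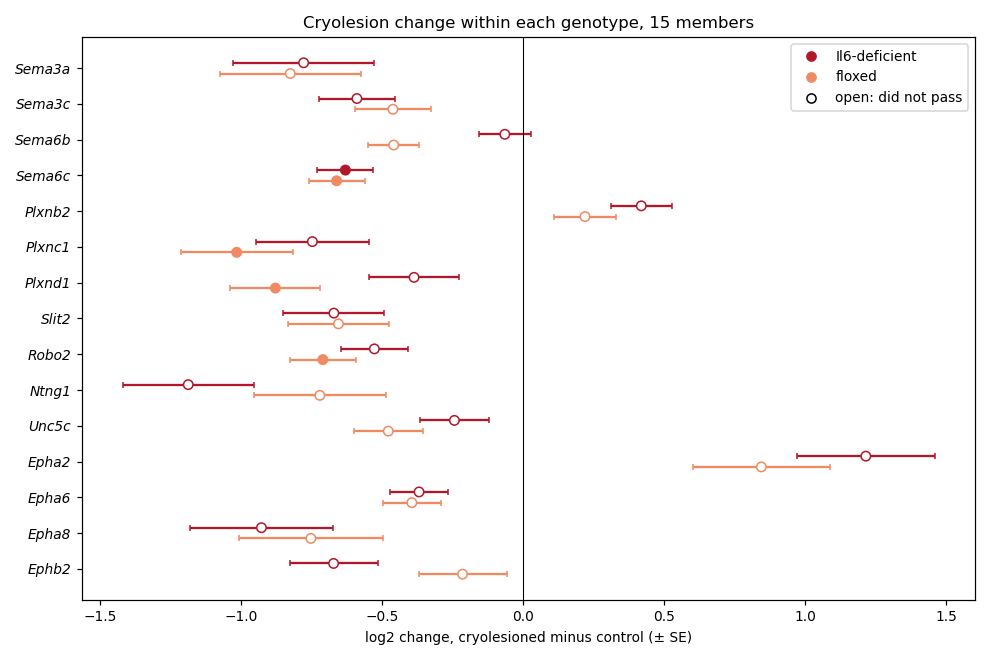
Log2 change after cryolesion in Il6-deficient and in floxed animals for the 15 genes that passed over both genotypes, with SE; filled points passed within that genotype. All 15 genes change in the same direction in both genotypes, and Sema6c is the gene with a filled point in each. The 15 were selected on the mean of both genotypes in the same fit, which favours a shared direction.

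The difference between the genotypes in their response was tested as an interaction and passed for 0 of 71 guidance genes, where 0% of all genes passed; limma gave 2 guidance genes, 2.82%, an unadjusted p under 0.05, against 3.31% of all genes, and a separate-channel fit passed 0. The 3 genes with the smallest p were Sema6b, at 0.39 ± 0.13, Sema4g, at 0.55 ± 0.21, and Sema3e, at -0.76 ± 0.33, each with an adjusted p of 1.00. Sema6b had a change of -0.07 ± 0.09 in Il6-deficient animals and -0.46 ± 0.09 in floxed animals, where its adjusted p was 0.0508. Sema4g, a membrane-bound semaphorin, had a change of -0.05 ± 0.15 in Il6-deficient animals and -0.60 ± 0.15 in floxed animals, and neither passed. Sema3e, the secreted ligand of Plxnd1, had levels of 8.58, 8.87, 9.08 and 9.26 in Il6-deficient cryolesioned animals, 9.76, 9.43, 8.72 and 9.16 in floxed cryolesioned animals, 9.50, 9.33, 9.19 and 9.34 in Il6-deficient controls, and 9.29, 8.45, 9.23 and 9.44 in floxed controls. The groups of Sema3e overlapped, with changes of -0.30 ± 0.24 in Il6-deficient and 0.46 ± 0.24 in floxed animals.

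No guidance gene differed between the genotypes at the threshold. Il6-deficient over floxed cryolesioned animals passed for 0 of 71 genes, and the same contrast in controls for 0 of 71, where 0% of all genes passed in either. An unadjusted p under 0.05 was reached by 10 guidance genes, 14.1%, after cryolesion, against 8.61% of all genes, and by 2, 2.82%, in controls, against 4.42% of all genes. Taken over both states, 0 of 71 passed, where 0.00341% of all genes passed; 14 guidance genes, 19.7%, and 14.1% of all genes had an unadjusted p under 0.05, and the separate-channel fit passed 0 guidance genes in each of these contrasts. The median difference was 0.11 after cryolesion, 0.06 in controls and 0.10 over both states, against 0.01 over all genes in each. Over both states 22 of the 71 genes, 31.0%, lay below 0, against 44.3% of all genes. The 3 genes with the smallest p over both states were Epha6 (0.23 ± 0.05, adjusted p = 0.273), Robo2 (0.25 ± 0.06, adjusted p = 0.273) and Sema6c (0.18 ± 0.05, adjusted p = 0.289).

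With sex as a covariate, 4 of the 71 genes passed for genotype over both states, 5.63%, where 5.39% of all genes passed. All 4 were higher in Il6-deficient animals: the plexins Plxna2 (0.38 ± 0.06, adjusted p = 0.0288) and Plxna3 (0.38 ± 0.07, adjusted p = 0.0394), which are class A receptors of semaphorins, Epha5, a neuronal ephrin-A receptor (0.37 ± 0.06, adjusted p = 0.0275), and Sema4c, a membrane-bound ligand of Plxnb2 (0.29 ± 0.06, adjusted p = 0.0494). Without that covariate their differences were 0.23, 0.30, 0.27 and 0.21. The sex term was estimated from the array of floxed control replicate 2 alone, so the adjustment rests on that array. With that array left out and no sex term, 0 of the 71 passed for this contrast, where 0.0136% of all genes did. Levels of Plxna3 were 8.28, 8.33, 8.50 and 8.28 in Il6-deficient cryolesioned animals, 7.90, 7.93, 8.10 and 7.58 in floxed cryolesioned animals, 8.56, 9.10, 8.57 and 8.53 in Il6-deficient controls, and 8.70, 8.37, 8.73 and 8.45 in floxed controls. Among cryolesioned animals the Il6-deficient ones lay above the floxed ones, while the controls overlapped. Epha5 had levels of 10.39, 9.89, 9.98 and 10.31 in Il6-deficient cryolesioned animals, 10.13, 9.80, 9.88 and 9.38 in floxed cryolesioned animals, 10.44, 10.31, 10.29 and 10.34 in Il6-deficient controls, and 10.45, 9.79, 10.19 and 10.19 in floxed controls, with overlap in both states.

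**Figure D4:**
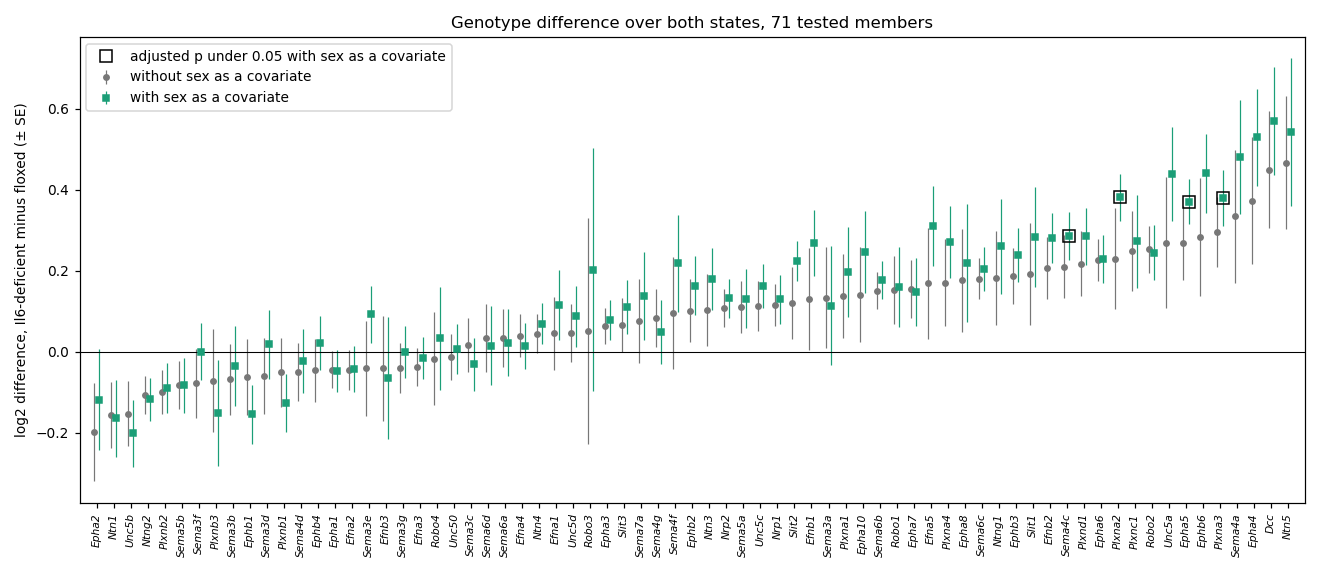
Log2 difference between Il6-deficient and floxed animals over both states for the 71 tested genes, with SE, without sex (grey circles) and with sex (green squares) as a covariate. Framed squares mark Sema4c, Plxna2, Epha5 and Plxna3, which passed with the covariate; none of the 71 passed without it.

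Levels of Plxna2 were 11.38, 11.04, 11.03 and 11.05 in Il6-deficient cryolesioned animals, 11.06, 10.86, 10.91 and 10.71 in floxed cryolesioned animals, 11.53, 11.59, 11.68 and 11.36 in Il6-deficient controls, and 11.60, 10.57, 11.49 and 11.63 in floxed controls, with floxed control replicate 2, the one without Xist, far below the others of its group; it was also the lowest of the floxed controls for Plxna3 and Epha5. Sema4c had levels of 13.74, 13.40, 12.64 and 13.60 in Il6-deficient cryolesioned animals, 13.41, 12.85, 12.88 and 13.51 in floxed cryolesioned animals, 13.12, 13.44, 13.12 and 13.53 in Il6-deficient controls, and 12.50, 13.41, 13.30 and 13.06 in floxed controls, and its groups overlapped. Mean levels of the neuronal markers were 13.80 to 13.92 in Il6-deficient controls against 13.40 to 13.73 in floxed controls, and those of microglial markers 10.23 to 10.43 in Il6-deficient controls against 10.58 to 10.86 in floxed controls, without overlap in either list. Of the 4 floxed controls 3 had Xist, so in controls genotype and sex are only partly separable, and the part of the marker shifts in the genotype differences was not tested.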

How the data were processed

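RNA of 16 mice in 4 groups of 4 was measured on 8 two-colour arrays. Per the file headers, Agilent Feature Extraction 10.7.3.1 made the scanner files, with Cy5 read in the red channel. They hold, as deposited and per channel, raw median spot and background intensities, the scanner's processed intensities, and a log10 ratio of these, red over green. The authors also deposited a table of log2 ratios, with background correction and scaling unstated; its column medians were -0.0045 to 0.0050 and it correlated at 0.967 to 0.977 with the ratios used here, so its centring and direction were settled and its exact scaling was not.

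Median intensities were background-corrected with normexp (offset 50) and ratios normalized by loess within each array. Control and outlier spots (115 to 194 an array) were left out, and spots of a probe averaged. Probes well above background in at least 4 of 16 channels were kept (37352). Names came from RefSeq accessions matched to the GRCm38.p6 gene table, for 32994 of 56605 probes, and the brightest probe stood for a gene. In 34 guidance genes several probes were present, and 0 genes had calls of opposite sign. Ratios were fitted in R 4.3.3 with lmFit and eBayes of limma 3.58.1, with 3 group coefficients and a dye intercept over all 8 arrays (4 residual and 2.95 prior degrees of freedom), and p-values were adjusted by Benjamini-Hochberg over all 29362 tested genes and probes. Levels per animal are log2 intensities after loess and Aquantile normalization. The fit was tested on simulated data.

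Named were all genes past the threshold, the largest change of each family, the 3 smallest p for genotype over both states and for the interaction, at most 6 genes of each pathway list, and, by their values, the ends of ranges. The members, lists, motifs and tests were chosen with earlier results of these data known. Sema4b had no matched probe and was not analysed here. Replicate numbers were not taken to pair animals: same-numbered animals of different groups had correlations of -0.25 to 0.53 in their deviations. Of these 24 pairs 11 lay above 0.1, among them 6 of 6 for number 2 (0.12 to 0.36). Some of the pairs shared an array, such as the Il6-deficient and floxed controls of number 2. Alternatives changed the offset, normalization, filter, probe rule, fit, covariates and arrays used.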

Additional observations from a re-analysis of the deposited data

Results flagged for a closer look

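Among 84 groups of 4 animals, for 21 named genes in the 4 groups, 4 held an animal whose gap to the nearest other was large against the range of its group (Dixon's test at its usual critical value). That is 4.76%, and chance gives about 1 in 20. Plxnc1 was at 9.79 in the Il6-deficient control animal of replicate 4, with the nearest at 9.62. Sema6b was at 10.55 in the Il6-deficient cryolesioned animal of replicate 1, with the nearest at 10.31, and at 10.39 in the floxed control animal of replicate 4, with the nearest at 10.47. Sema6c was at 9.67 in the Il6-deficient control animal of replicate 2, with the nearest at 9.46.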

How the results depend on the processing

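The count of 15 guidance genes over both genotypes became 29 in a separate-channel fit, where 28.7% of all genes passed, 9 with sex as a covariate (8.31%) and 2 with the replicate block (2.63%), and 3 to 21 without 1 array (3.16% to 17.6%). The count of 4 in floxed animals became 0 with median centring (1.22% of all genes), 0 with processed intensities (1.52%), 19 in the separate-channel fit (16.7%), 2 without a dye intercept (2.39%), 1 with sex as a covariate (2.72%), 0 with the replicate block (1.15%), and 0 to 10 without 1 array (0.194% to 7.29%). The count of 1 in Il6-deficient animals became 3 with an offset of 16 (3.04% of all genes), 0 with processed intensities (1.52%), 3 with the authors' table (3.09%), 2 with a filter of 8 channels (2.97%), 12 in the separate-channel fit (10.67%), 2 without a dye intercept (2.11%), 0 with sex as a covariate (1.91%), 0 with the replicate block (0.0204%), and 0 to 1 without 1 array (0.126% to 4.04%). The count of 0 for genotype over both states became 4 with sex as a covariate (5.39%), a fit whose sex term rests on 1 array. The interaction and the genotype counts within each state stayed at 0 in every setting tried. For named genes, 411 values kept their direction and side of the threshold, 153 kept direction and lost the call, 3 passed anew, all for Efna1, and 3 turned: Nrp1 to 0.0868 with the mean over probes, and Efnb3 to 0.0444 with the replicate block and to 0.0515 without the second array that set floxed cryolesioned against Il6-deficient control animals, in a range of -0.444 to 0.0515 without 1 array. The causes were not tested. Replicate numbers were not taken to pair the animals, so the block is a check only. The 8 arrays leave few degrees of freedom, and dim probes such as that of Ntn4 lie near background.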
